A study of Caenorhabditis elegans with 6 samples.

Results

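The genes described here are 10 genes of the meiotic chromosome axis and the synaptonemal complex: htp-3, him-3, htp-1, htp-2, rec-8, syp-1, syp-2, syp-3, syp-4 and zhp-3. They were chosen by name, and all 10 were found among the 22416 genes with counts in the deposited table. RNA was sequenced from pools of whole CL2006 Caenorhabditis elegans, a strain of genotype unc-54p::Abeta in which a muscle promoter drives the human amyloid-β peptide, so both groups carried this transgene. All worms were raised at 20 °C on bacteria with the empty RNAi vector (EV) until the L4 larva, were moved every day to leave progeny behind, and were taken on day 6 of adulthood. The EV control group, 3 libraries, stayed on EV bacteria, and the nol-56 RNAi group, 3 libraries, was fed bacteria for RNAi of nol-56, which encodes a core protein of nucleolar box C/D particles, after the L4 stage. The comparison asks what nol-56 RNAi did to the transcripts of the meiotic chromosome machinery.

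In meiotic prophase each chromosome is organised along a protein axis, and homologous chromosomes are then joined along their length by the synaptonemal complex. In C. elegans the axis holds cohesin with the kleisin REC-8 and the HORMA domain proteins HTP-3, HIM-3, HTP-1 and HTP-2, with HTP-3 as the scaffold to which the others bind. The SYP proteins form the central region between paired axes, and ZHP-3, a RING finger protein, moves along it to the sites of crossovers. In the adult hermaphrodite these proteins act in the germ cells of the gonad, and the worm gonad holds germ cells in every step from mitosis through meiotic prophase to oocytes.

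Total counts were 21138955 to 34841215 per library. nol-56 itself went from 263 ± 8.67 to 18.2 ± 2.59 CPM (counts per gene scaled to a common library size, itself adjusted with TMM factors; mean ± SD, n = 3), so the targeted gene followed the labels. Germline, neuron, muscle and intestine markers were all detected, as whole worms should give, and no marker of any list used here was at 0 in all libraries. The labels do not say whether the pools of a group were separate cultures, so p-values cover the spread between these pools, which may be technical.

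All 10 genes fell on nol-56 RNAi and none rose. The fall ran from 1.56-fold for syp-3 to 4.13-fold for htp-3, with a median log2 fold change of −1.02 against 0.16 over the 14677 genes tested (edgeR quasi-likelihood test, threshold adjusted p of 0.05). Calls were common in this comparison: 40.8% of all genes tested were called lower and 47.2% higher, so a call alone does not set a gene apart here. By 2-fold or more, 5 of the 10 fell, where 12.4% of all genes were called lower by that much. Tested against a fold of 1.5, 9 of the 10 were called lower, with 22% of all genes, and syp-3 missed it (adjusted p = 0.127, glmTreat in edgeR). Together the 10 transcripts summed to 929 ± 32.3 CPM in the EV control group (n = 3 libraries) and to 401 ± 3.98 CPM after nol-56 RNAi. CPM are relative to the rest of the library. In RNA of whole worms, fewer germ cells, less RNA per germ cell and more RNA from other tissues thus cannot be told apart.

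Replicates lay close together. The coefficient of variation within a group was between 1.55% (htp-3) and 8.07% (syp-4) in EV control and between 1.53% (rec-8) and 8.01% (syp-3) in nol-56 RNAi libraries, and for every one of the 10 genes the lowest EV control library stood above the highest nol-56 RNAi library, as it did for 40.9% of all genes. Within the EV control group, library 1 was the highest for 7 of the 10 genes and library 3 the lowest for 8.

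**Figure D1:**
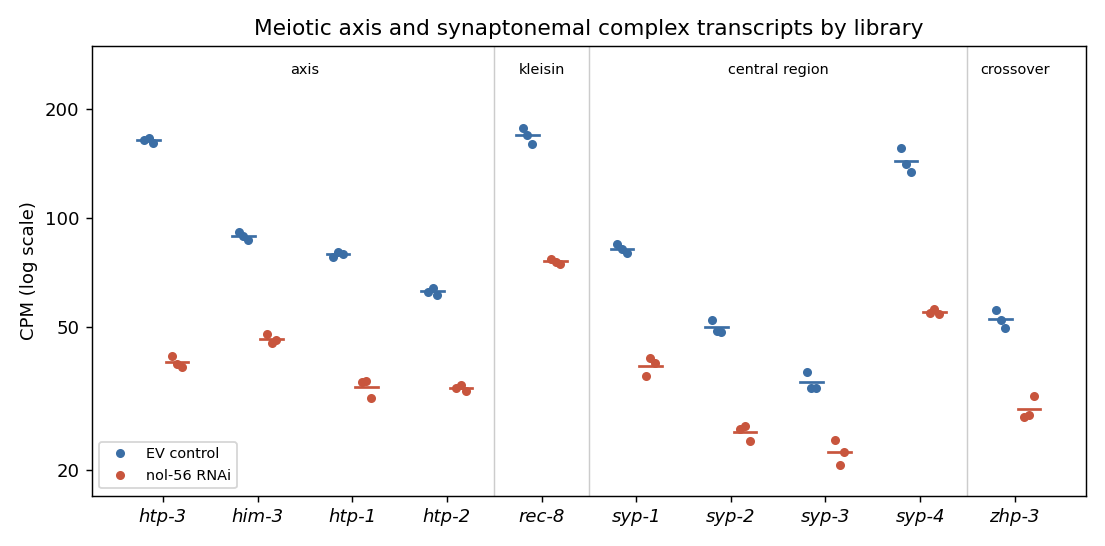
CPM of each gene (log axis) in the 3 EV control (blue) and 3 nol-56 RNAi (red) libraries, grouped by role; points are libraries and short lines are group means. The groups do not overlap for any of the 10 genes, and htp-3, at 162 to 167 CPM in EV control, drops to 38.6 to 41.4 CPM.

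The axis scaffold gene htp-3 changed the most. Its level was 165, 167 and 162 CPM in EV control libraries 1 to 3, and 41.4, 39.4 and 38.6 CPM in nol-56 RNAi libraries 1 to 3. The EV control libraries thus lay within a narrow band about 4 times as high as the other group. This is a log2 fold change of −2.05 ± 0.04 (SE; Benjamini-Hochberg adjusted p = 6.57e-20, two-sided test in edgeR), and 2.62% of all genes tested had a lower log2 fold change. htp-3 (WBGene00002034) is protein coding and lies on chromosome I of WBcel235, 4827072 to 4829791, plus strand, with 9 exon blocks.

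The 3 HORMA domain genes whose proteins bind HTP-3 fell less. him-3, which encodes a core axis protein needed for homolog pairing and synapsis, was at 91.2, 89.3 and 87.1 CPM in EV control libraries and at 47.7, 45.1 and 45.8 CPM in nol-56 RNAi libraries. That is −0.95 ± 0.04 on the log2 scale (SE; adjusted p = 8.81e-15, edgeR). All nol-56 RNAi libraries lay well below all EV control libraries. him-3 (WBGene00001862) lies on chromosome IV, 6977508 to 6978765, plus strand, and shares 24 exonic bases with prkl-1 on the other strand.

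htp-1 and htp-2 are paralogs of closely similar sequence, and the treatment of reads that match both is unknown here, so the split of reads between them is uncertain. HTP-1 prevents synapsis between chromosomes that have not paired, and HTP-2 has functions that overlap with it in part. htp-1 was at 77.8, 80.6 and 79.6 CPM in EV control libraries and at 35.1, 35.4 and 31.7 CPM in nol-56 RNAi libraries (log2 fold change −1.22, standard error 0.05, adjusted p = 8.23e-16, edgeR). htp-2 was at 62.4, 64.2 and 61.2 CPM in EV control libraries and at 33.7, 34.4 and 33.1 CPM in nol-56 RNAi libraries (−0.89, standard error 0.05, adjusted p = 8.93e-14, edgeR). The 2 transcripts were unequal in every EV control library and nearly equal in the nol-56 RNAi libraries, with htp-1 below htp-2 in library 3 alone. Both lie on chromosome IV and are 1027964 bases apart: htp-1 (WBGene00002032) at 5390189 to 5391557 on the minus strand and htp-2 (WBGene00002033) at 6419522 to 6420898 on the plus strand.

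rec-8 encodes the meiotic kleisin, the subunit that closes the cohesin ring. Its level was 178, 170.2 and 161 CPM in EV control libraries and 77.1, 75.7 and 74.8 after nol-56 RNAi. On the log2 scale it fell by 1.16 ± 0.04 (SE; adjusted p = 2.27e-16, edgeR), a 2.24-fold fall and the libraries of the EV control group spread more than those of the other. rec-8 (WBGene00004333) lies on chromosome IV, 13349122 to 13353193, minus strand.

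Among the 4 central region genes, syp-4 fell the most and syp-3 the least. SYP-1, SYP-2, SYP-3 and SYP-4 are all needed for the central region to form. syp-4 was at 157, 141 and 134 CPM in EV control libraries and at 54.4, 56.1 and 54.2 CPM in nol-56 RNAi libraries (log2 fold change −1.39, standard error 0.05, adjusted p = 1.69e-16, edgeR). EV control library 1 was the highest for syp-4, and even the lowest EV control library was more than 2-fold above every nol-56 RNAi library. syp-1 was at 84.7, 82.0 and 80.1 CPM in EV control libraries and at 36.4, 40.9 and 39.6 CPM in nol-56 RNAi libraries (−1.08, standard error 0.05, adjusted p = 6.04e-15, edgeR). syp-2 was at 52.1, 48.8 and 48.4 CPM and at 25.97, 26.5 and 24.1 CPM (−0.96, standard error 0.06, adjusted p = 2.77e-13, edgeR). For syp-1 and syp-2 the groups stood about 2-fold apart, with little spread inside each.

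syp-3 was at 37.5, 33.7 and 33.9 CPM in EV control libraries and at 24.2, 20.6 and 22.5 CPM in nol-56 RNAi libraries. Its change on the log2 scale was −0.64 ± 0.06 (SE; adjusted p = 4.58e-09, edgeR), and 23.9% of all genes tested had a lower one. The groups were still apart, with EV control library 1 the highest of all. syp-3 (WBGene00006377; chromosome I, 8663045 to 8664445, minus strand) shares 61 exonic bases with mrt-1 on the other strand, a gene that had a log2 fold change of −0.68. Whether the counting used strand is unknown here, so reads of this stretch cannot be assigned with certainty. syp-1 (WBGene00006375; chromosome V, 16404274 to 16407701, plus strand) shares 517 exonic bases with F13A7.14 on the same strand, which stood at −0.21. syp-2 (WBGene00006376) lies on chromosome V, 5536487 to 5537717, plus strand, and syp-4 (WBGene00019247) on chromosome I, 6847511 to 6849923, plus strand; neither overlaps another gene.

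zhp-3 was at 55.7, 52.2 and 49.6 CPM in EV control libraries and at 28.0, 28.4 and 32.2 CPM in nol-56 RNAi libraries. The log2 scale change was −0.83 ± 0.06 (SE; adjusted p = 1.31e-11, edgeR), a 1.78-fold fall. nol-56 RNAi library 3 was the highest of its group, at a level still far below the lowest EV control library. zhp-3 (WBGene00006976) lies on chromosome I, 8529376 to 8531342, minus strand, and shares exonic bases with no other gene.

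Levels of different genes can be compared only per length, here CPM per kb of the gene's annotated exons. In EV control, him-3 (76.3 ± 1.76), syp-4 (70.4 ± 5.68), htp-3 (70.2 ± 1.09), rec-8 (68.8 ± 3.52) and htp-1 (64.5 ± 1.16) led the order, each overlapping its neighbour in that order over the 3 libraries. htp-2 (50.6 ± 1.23) and syp-2 (45.6 ± 1.89) followed with ranges of their own. zhp-3 (40.6 ± 2.35) and syp-3 (37.5 ± 2.25) overlapped, and syp-1 was the lowest (26.9 ± 0.770), with an annotated exon length that includes the bases shared with F13A7.14. On nol-56 RNAi the order was him-3 (39.5 CPM per kb), rec-8 (30.8), htp-1 (27.7), htp-2 (27.3), syp-4 (26.9), syp-3 (24.0), syp-2 (23.4), zhp-3 (22.8), htp-3 (16.99) and syp-1 (12.8). htp-3 thus went from the third place to the ninth, and its range in nol-56 RNAi libraries overlapped neither neighbour's.

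**Figure D2:**
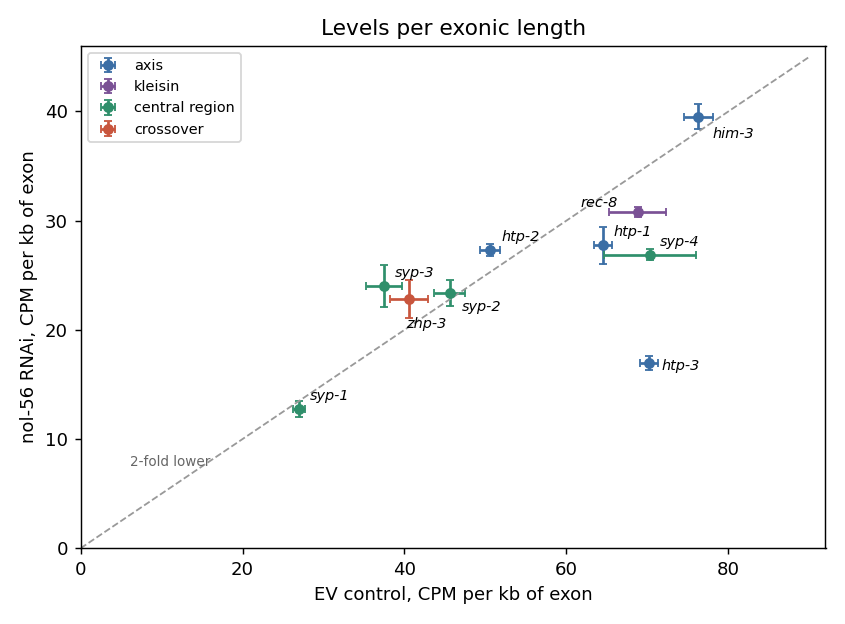
Level of each gene in CPM per kb of exon in EV control (x) and nol-56 RNAi (y), means of 3 libraries with SD bars, coloured by role; the dashed line marks a 2-fold lower level. Most genes lie near the line, and htp-3 lies far below it, at 70.2 in EV control libraries against 16.99 after nol-56 RNAi.

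The genes did not fall in equal proportion, which ratios within each library show without regard to scaling. The log2 ratio of htp-3 to him-3 was 0.85, 0.90 and 0.89 in EV control libraries and −0.20, −0.19 and −0.25 after nol-56 RNAi. The difference was −1.10 (exact two-sided permutation test over libraries, p = 0.1, n = 3 per group), and 0.1 is the smallest p that 3 against 3 allows. The change of the ratio is meant here and not its sign, since these CPM are not per length. Per kb of exon, mean htp-3 was below him-3 in both groups. The means were 70.2 and 76.3 in EV control, and 16.99 and 39.5 after nol-56 RNAi.

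The log2 ratio of htp-1 to htp-2 was 0.32, 0.33 and 0.38 in EV control libraries and 0.06, 0.04 and −0.06 after nol-56 RNAi, a difference of −0.33 (exact permutation p = 0.1, n = 3 per group). The groups did not overlap, and the uncertainty on reads shared by these paralogs applies here. The mean of syp-1 to syp-4 minus the mean of the 4 HORMA domain genes, in log2 CPM, was −0.37, −0.50 and −0.49 in EV control libraries and −0.23, −0.20 and −0.17 after nol-56 RNAi, a difference of 0.26 (exact permutation p = 0.1, n = 3 per group). This rests on htp-3: with that gene left out of the axis mean, a choice made after seeing the data, the values were −0.10, −0.23 and −0.21 in EV control libraries and −0.20, −0.18 and −0.15 after nol-56 RNAi, a difference of 0.001 (exact permutation p = 1.0, n = 3 per group). The groups then overlapped.

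Set against the mean of the other 9, in log2 CPM, each gene shows how far it left the common course. htp-3 went from 1.12 ± 0.04 in EV control to 0.09 ± 0.04 in nol-56 RNAi libraries (SD, n = 3), a difference of −1.03, and syp-4 by −0.30. On the other side stood syp-3 (0.53), zhp-3 (0.32), htp-2 (0.25), him-3 (0.19) and syp-2 (0.17), which lost less than the mean of the others. For each gene but htp-3, that mean holds htp-3, whose large fall shifts these differences upward. Values without htp-3 were not computed, so the small differences and their signs may depend on it. syp-1, for instance, stood at 0.04, although its log2 fold change (−1.08) lay below the median of the 10 (−1.02). With htp-3 in the mean of the rest, rec-8 (−0.05), syp-1 (0.04) and htp-1 (−0.11) stayed nearest to it. For syp-1 and htp-1 the groups overlapped. The groups were apart for 8 of the 10 genes, and 93.0% of all other genes, set against the mean of the 10, were apart as well, so separation of this kind is common and the sizes carry the description.

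**Figure D3:**
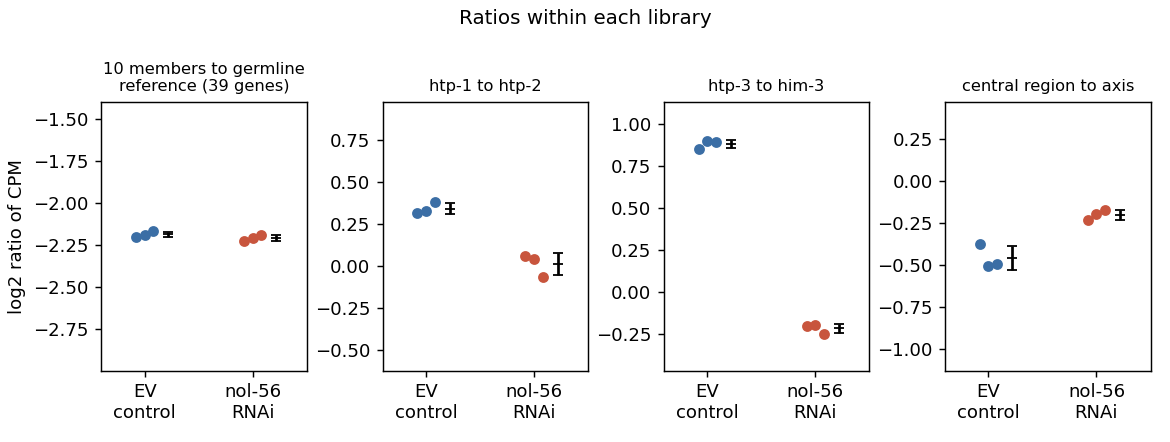
Log2 ratio of CPM within each library for 4 comparisons, EV control in blue and nol-56 RNAi in red, with mean and SD (n = 3) beside the points; all panels span the same height. The ratio of htp-3 to him-3 drops by 1.10, whereas the 10 genes against the germline reference move by 0.02.

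Germ cell transcripts in general were lower in the same libraries. The markers of germline stem cells and the switch to meiosis fell in 9 of 9 cases (median log2 fold change −1.17), those of germ granules in 13 of 13 (−1.24) and those of oocytes in 17 of 17 (−0.80). Their summed levels ran from 2990 to 3410 CPM in EV control libraries and 1426 to 1460 CPM after nol-56 RNAi for the first list, from 4522 to 4709 and 2028 to 2155 CPM for the second, and from 12490 to 13830 and 6461 to 6783 CPM for the third. Examples are gld-1, a translational repressor that directs entry into meiosis (1145 ± 66.6 to 460.0 ± 9.89 CPM, −1.32), nos-3 (−1.47), the germ granule helicase gene glh-2 (−1.50), mip-1 (−1.72), the caveolin gene cav-1 (−2.83) and egg-2 (−1.27).

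Beside these 39 genes as a germline reference, the 10 meiotic genes as a whole stood at nearly the same ratio in both groups. Their mean log2 CPM minus that of the reference was −2.20, −2.19 and −2.17 in EV control libraries and −2.22, −2.21 and −2.19 after nol-56 RNAi, and the groups overlapped. The difference was −0.02 (exact two-sided permutation test, p = 0.2, n = 3 per group), with SDs of 0.02 in both groups. It was 0.05 with germ granule genes alone as the reference (exact permutation p = 0.2, n = 3) and −0.12 with oocyte genes alone (p = 0.1), so its sign depends on the germ cell genes chosen. The mean of the 10 holds htp-3, whose log2 fold change of −2.05 lies far below their median of −1.02. The comparison was not repeated without htp-3, so the small size and the sign of the difference may depend on that gene too. Of the reference genes, 21 of 39 had a log2 fold change below the median of the 10.

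Markers of other tissues moved otherwise. As CPM are relative, a rise here is one of share in the library and not of amount per worm. All 12 neuron markers rose (median 1.19; summed level 557 to 582 CPM in EV control libraries and 1111 to 1141 CPM after nol-56 RNAi), as did all 10 of body wall muscle (0.95; 3666 to 3934 and 7105 to 7218 CPM) and all 12 of the intestine (1.13; 42360 to 43760 and 96500 to 110800 CPM). Among them were egl-3 (1.44), egl-21 (1.46), unc-27 (1.12), mlc-3 (1.11), mtl-2 (1.37) and the yolk protein gene vit-2 (1.33). Most of the intestine sums came from vit-2 and vit-6, the latter named after its values were seen. Their means were 13810 and 27270 CPM in EV control, and 34630 and 65710 CPM after nol-56 RNAi. Markers of the somatic gonad, which encloses the germ cells, went up in 6 of 10 cases and down in 3 (median 0.57; 1112 to 1177 and 956 to 984 CPM), with plc-1 (1.25) and ipp-5 (1.21) among those that rose. Most of these sums came from fln-1, named after its values were seen, which went from 903 ± 33 to 620 ± 21 CPM (−0.54). The lower sum thus rests on fln-1 and does not describe the list. Of 9 epidermis markers 5 fell and 2 rose (median −0.29; 479 to 483 and 582 to 595 CPM), with nhr-23 (−0.74) and rol-6 (1.11) among them. The higher sum rests on rol-6, which went from 169 ± 5.49 to 364 ± 15.9 CPM, and does not describe the list. The part of these tissues in the fall of the meiotic transcripts was not tested.

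Markers of early embryos and sperm, which the uterus and spermatheca of a hermaphrodite can hold, were at low levels. Of 13 early embryo markers with counts, 6 had enough reads, and 5 of these fell (median −2.53; summed level 82.5 to 90.5 CPM in EV control libraries and 19.3 to 20.2 CPM after nol-56 RNAi), with vet-2 (−2.83) and vet-6 (−3.62) among them. Of 14 sperm markers, 9 had enough reads, and 4 of them fell and 4 rose (median −0.16; 26.03 to 29.9 and 33.7 to 39.1 CPM). Of these, spe-15 rose (0.53) and msp-57, one of many near-identical msp copies, was at 1.22 ± 0.363 CPM in EV control libraries and at 0.096 ± 0.059 CPM after nol-56 RNAi. Both summed levels were far below those of the germline lists, and their part in the result was not tested.

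Most other genes of meiosis fell as well. Over 6 lists of the pathway, 78 of 81 genes tested fell and 1 rose, or 96.3% lower where 40.8% of all genes were, with a median log2 fold change of −1.07. All 10 cohesin subunits and regulators fell (median −1.14). The ring subunit genes smc-3 (296 ± 5.67 to 108 ± 1.69 CPM, −1.46) and him-1, which encodes SMC-1 (−1.25), fell with evl-14, the worm PDS5 gene (−1.33), and wapl-1, whose product releases cohesin from chromosomes (−1.20).

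Of 9 other genes of the synaptonemal complex and its assembly, 8 fell (median −0.67). syp-6 fell from 121 ± 7.19 to 36.8 ± 1.81 CPM (−1.71) and its paralog syp-5, a further central region gene, from 87.2 ± 0.523 to 43.2 ± 2.37 CPM (−1.01). cra-1 (−1.18) and hal-2 (−1.17), both needed for normal assembly of the complex, fell too. gras-1, named after its values were seen, was the 1 that did not pass the test (−0.04, adjusted p = 0.369, edgeR).

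Genes of crossover designation and resolution fell in 14 of 15 cases (median −1.14). The MutS homolog genes msh-5 (90.8 ± 5.55 to 25.1 ± 0.534 CPM, −1.85) and him-14, the worm MSH4 gene (−1.52), whose products mark crossover sites together with ZHP-3, fell. The BLM helicase gene him-6 (−1.37) and brd-1, the worm BARD1 gene (−1.35), fell as well. The nuclease gene mus-81 rose (0.16), and was named after its values were seen. It stood at 0.16 where the median over all genes was also 0.16.

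Genes of double-strand break formation and repair fell in 18 of 19 cases (median −0.98). dsb-1, required for meiotic break formation, fell from 83.2 ± 2.34 to 23.1 ± 0.320 CPM (−1.85), and the exonuclease gene exo-1 (−1.55), the germline chromatin factor gene xnd-1 (−1.54) and rad-50, of the break-processing complex with MRE-11 (−1.28), fell too. rfs-1, named after its values were seen, did not pass the test (0.03, adjusted p = 0.787, edgeR). In the list of homolog pairing, movement and the synapsis checkpoint all 13 fell (median −1.19). The pairing centre zinc finger genes zim-3 (62.4 ± 1.86 to 16.5 ± 1.08 CPM, −1.92) and zim-2 (−1.78) fell with sun-1 (−1.52) and zyg-12 (−1.29), which link chromosomes through the nuclear envelope to the cytoskeleton. All 15 genes of meiotic chromosome segregation fell (median −0.79), among them the separase gene sep-1 (−1.33), its inhibitor ify-1 (−0.99), the inner centromere gene icp-1 (−1.36) and the haspin kinase gene hasp-1 (−1.29).

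**Figure D4:**
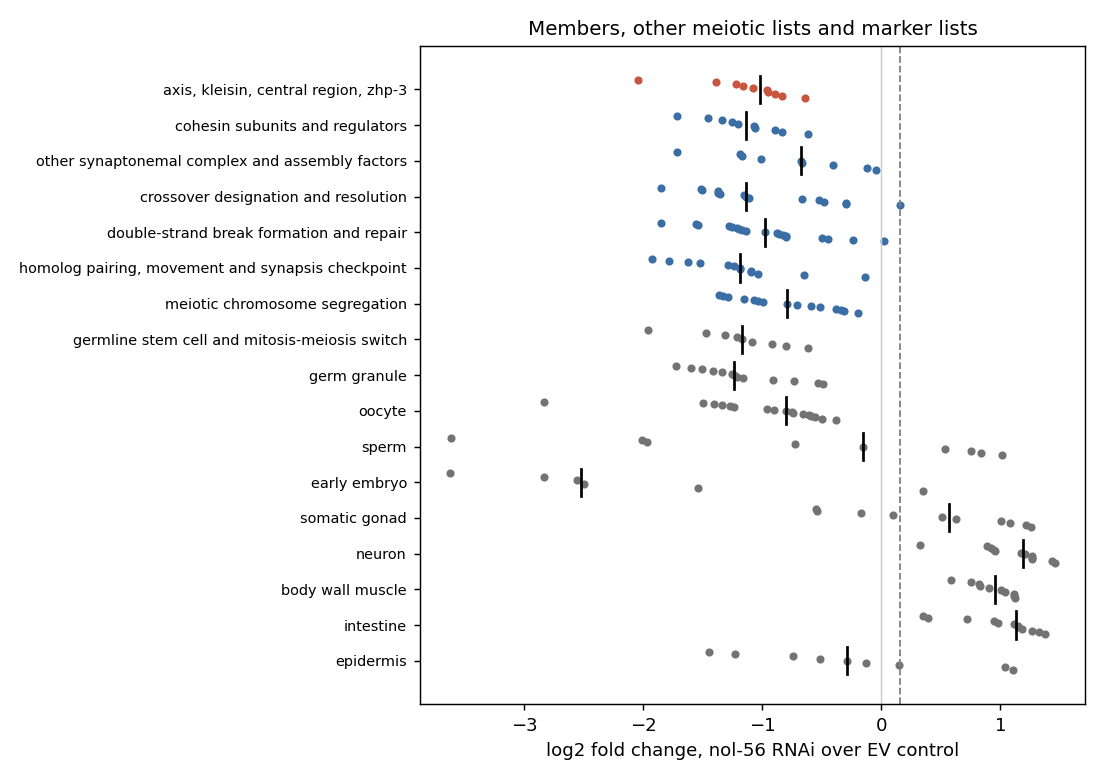
Log2 fold change (nol-56 RNAi over EV control) of each tested gene in the 10 axis and synaptonemal complex genes (red), 6 other meiotic lists (blue) and the marker lists (grey); black ticks are list medians and the dashed line is the median over all genes tested, 0.16. The 10 genes, with a median of −1.02, lie in the span of the other meiotic and germline lists, and htp-3 is the lowest of the 10.

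The genes whose profile over the 6 libraries was nearest to the mean profile of the 10 were sought by Euclidean distance of centred log2 CPM among 8442 genes whose log2 CPM averaged 3 or more. The nearest 5 were apr-1 (distance 0.026), clk-2 (0.027), F25H8.2 (0.034), polq-1 (0.039) and F18C12.3 (0.039). apr-1, the worm gene for an APC-related protein, went from 319 ± 8.62 to 148 ± 2.20 CPM (log2 fold change −1.10), and polq-1, which encodes a DNA polymerase of break repair, from 173 ± 5.18 to 78.8 ± 0.842 CPM (−1.13). Of the 10 themselves, rec-8 was the nearest to their mean (0.067), with 31 candidate genes nearer, and htp-3 the farthest (1.14), with 4485 nearer. The mean profile includes htp-3 and was not computed without it, so the order of nearness may depend on that gene.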

How the data were processed

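Read counts per gene and library were used as the authors deposited them, with no normalization. The authors also deposited a normalized signal per gene, in which each library's counts are divided by its own size factor (0.832 to 1.23), which was used only for a check. Without giving role or order, the submitters' processing notes list WBcel235, DESeq2 1.36.0, HTSeq 2.01, TopHat2 2.1.1 and cutadapt 2.10.

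Counts of all genes kept by filterByExpr (at least 99.92% of each library's counts) were scaled with TMM and tested with R 4.3.3, edgeR 4.0.16 (quasi-likelihood, group as the only term), with Benjamini-Hochberg adjustment over all genes. The test was checked on simulated counts. Log2 CPM for ratios and distances used a prior count of 2. Annotation was Ensembl 115 of WBcel235. Standard errors were derived from the log2 fold change and its F statistic. Counts of amplified reads are not independent molecules.

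The 10 genes and all lists were chosen with earlier results of these data known. From each meiotic list the 4 genes, and from each marker list the 2 genes, with the smallest p were named, and the 5 genes of nearest profile. Of 213 list names, rad-54 and vet-4 had no match. The table holds 11 gene names turned into dates, among them sep-1 and apr-1, which were matched by gene ID. Chi-square tests over genes gave 1.99 to 5.95 per degree of freedom for pairs of libraries in a group, more than counting noise gives. Each library was counted as a sample, though such spread does not show that the pools were separate cultures. Alternatives used DESeq2 1.42.0 and limma 3.58.1.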

Additional observations from a re-analysis of the deposited data

How the results depend on the processing

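All 10 genes were called lower under 15 alternatives of scaling, filter, tool, design and left-out library, with the highest adjusted p at 1.25e-05 over 150 values from edgeR, DESeq2 and limma-voom, and none turned direction. The median log2 fold change of the 10 moved with the scaling, to −1.16 with RLE factors, −0.77 with upper-quartile factors and −0.925 with library totals. It was −0.87 with a filter of CPM above 5 and −1.18 with DESeq2, which also change the genes fitted. The median of all genes moved by −0.14 with RLE and 0.25 with upper-quartile factors, and the median of the 10 minus that of all genes was −1.18 with both, as with TMM. Other factors alone shift all genes almost alike, so this difference could hardly have moved with them. It was −0.859 with genes above 5 CPM and −1.25 with DESeq2, where the genes fitted also change. With one library left out the median was −1.05 to −0.997. The 10 against the germline reference stood at −0.03 to −0.01 with a library left out and turned to 0.047 with the germ granule genes alone, whose own mean fall was larger than that of the full reference (−1.16 against −1.09). The ratio of htp-3 to him-3 changed by −1.11 to −1.08, that of htp-1 to htp-2 by −0.35 to −0.29 and that of central region to axis by 0.23 to 0.30 over a prior count of 0.5 and each library left out; without htp-3 the last came to 0.001. Values of each gene against the other 9 were repeated in the same way, as alternatives chosen after seeing the data, and none turned direction. For the genes other than htp-3, htp-3 stayed in that mean throughout, as it did in the comparison with the germline reference. Same-numbered libraries did not deviate together (correlation −0.035 to 0.000), so the numbers do not pair them; with the replicate number as a block 10 of 10 genes were lower (median −1.02), and over all genes 5964 were called lower and 6893 higher, against 5990 and 6927. Depth gave each of the 10 genes at least 486 reads per library.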

Other observations

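Paralogs beside the 10 genes moved to unlike extents. These genes were named after their values were seen, and the differences between them were not tested. Among kleisins, coh-4 and coh-3, which encode a near-identical pair that acts in meiosis beside REC-8, had log2 fold changes of −1.71 and −0.84, with reads that may be shared between them, and scc-1, the kleisin of dividing cells, had −0.62. In the ZHP family, zhp-4 (−1.15) and zhp-2 (−1.11) stood below zhp-3 (−0.83) and zhp-1 (−0.29) above it, all at low levels of 14.7 to 52.5 CPM in EV control. The Skp1-related genes skr-1 and skr-2, whose products also take part in the synaptonemal complex and act in many tissues through ubiquitin ligases, stood at −0.12 and −0.67, and they too are close paralogs whose reads may be shared.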
